A study of Mus musculus with 36 samples.

Results

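RNA-Seq of the atria was compared between CUG960 mice that kept expressing CUG repeat RNA and received an MBNL1 vector (MBNL1 cohort) and CUG960 mice that kept expressing it and received no vector (+dox cohort). The 6 libraries were chosen by their sample labels, 3 per cohort, out of 36 libraries in the series. CUG960 mice carry the TREDT960I transgene, in which a tetracycline response element drives human DMPK sequence with 960 CTG repeats that are interrupted, and MHCrtTA, which drives the transactivator from the α-MHC promoter, so that the repeat RNA is limited to cardiomyocytes. All 6 animals carried both transgenes, were fed doxycycline (dox) chow from postnatal day 1 and were killed at 21 weeks. The MBNL1 animals were injected in the tail vein at 9 weeks, 12 weeks before collection, with an AAV9 vector that expresses 3XFLAG-tagged human MBNL1 from the human TNNT2 promoter, which is active in heart muscle. Because the +dox animals were not injected, the effect of carrying a vector and the effect of MBNL1 cannot be told apart here. The +/-dox cohort (dox removed at 9 weeks) and the -dox cohort (never on dox) had the same transgenes and are given beside some values, as are the ventricles of the same cohorts.

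In myotonic dystrophy type 1 the DMPK gene carries too many copies of a CTG triplet downstream of its coding sequence. The transcribed repeat folds into hairpins that collect in nuclear foci and bind the muscleblind-like (MBNL) proteins, which are then less available for their usual targets. MBNL proteins bind RNA at YGCY motifs (Y is a pyrimidine), where they regulate alternative splicing, and in 3′ untranslated regions they affect where mRNAs go and how long they last. In the heart, loss of MBNL function shifts many transcripts toward fetal isoforms and is linked to slow conduction and arrhythmia, including atrial arrhythmia.

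The totals of the estimated counts of the 6 libraries lay between 62.5 and 85.8 M, and 22786 to 23590 genes were above 0 in each. Pearson's r between replicates across genes, on log10(TPM + 1), lay between 0.995 and 0.998. Pairs of libraries from different cohorts were about as alike, between 0.995 and 0.997. In both cohorts replicate 3 was the library with Xist RNA and close to none from the Y-linked genes Ddx3y, Uty, Kdm5d and Eif2s3y, and it was also the one with a library name of another number series, so that sex and name series were balanced between the cohorts but cannot be told apart from each other. Atrial markers were abundant in every library: Myl7, the atrial regulatory light chain, was between 10139 and 11941 TPM. Myl2, the ventricular regulatory light chain, was at 57.7, 46.8 and 73.0 TPM in +dox and at 436, 217 and 42.1 TPM in MBNL1. Against a mean of 19364.5 TPM in the ventricles of +dox mice, MBNL1 replicate 1 thus held 2.25% of the ventricular level and the highest +dox library 0.377%. In bulk samples, fewer cells of a type and less RNA per cell cannot be told apart.

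Mbnl1 itself was measured with the mouse gene, since the human cDNA of the vector is not among the gene symbols. The mouse gene was at 60.1, 55.04 and 64.6 TPM in +dox and at 68.7, 66.7 and 75.3 TPM in MBNL1. The ranges did not overlap, but the log2 fold change of 0.14 ± 0.09 (SE, n = 3 per cohort) was not called (edgeR quasi-likelihood test with Benjamini-Hochberg adjustment, adjusted p = 0.77). How many reads of the human cDNA were assigned to the mouse gene was not tested, so these values do not measure the vector. Mbnl2, the other main MBNL gene of the heart, had 325, 294 and 302 TMM-scaled CPM (counts relative to library size, corrected for library composition) in +dox and 256, 284 and 262 CPM in MBNL1. Its log2 fold change was -0.20 ± 0.09, not called (adjusted p = 0.57), while Mbnl3 was between 0.0756 and 0.226 CPM in the 6 libraries. Dmpk, the mouse gene of the kinase whose human counterpart carries the repeat, was at 573, 560 and 503 CPM in +dox and 560, 548 and 497 CPM in MBNL1. Whether reads of the human DMPK transgene were assigned to mouse Dmpk was not tested.

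A small set of genes differed between MBNL1 and +dox atria, and most of it was higher with the vector by edgeR. A gene was called when its adjusted p was below 0.05 and its change at least 1.5-fold. Of 19231 genes tested, 25 were called (0.130%), of which 19 were higher in MBNL1 (0.0988%) and 6 lower (0.0312%). The balance of directions depended on the tool: DESeq2 called 35 genes higher and 19 lower, and limma voom 26 higher and 30 lower. In 24 of the 25, Fosb being the exception, the 3 MBNL1 and the 3 +dox libraries did not overlap, which was also the case for 17.4% of all genes tested. By adjusted p alone, 67 genes passed (0.348%). The 42 of these with a change under 1.5-fold were split into 25 higher and 17 lower genes. At an unadjusted p below 0.05 there were 1521 genes, and the median log2 fold change of all genes was 0.00.

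**Figure D1:**
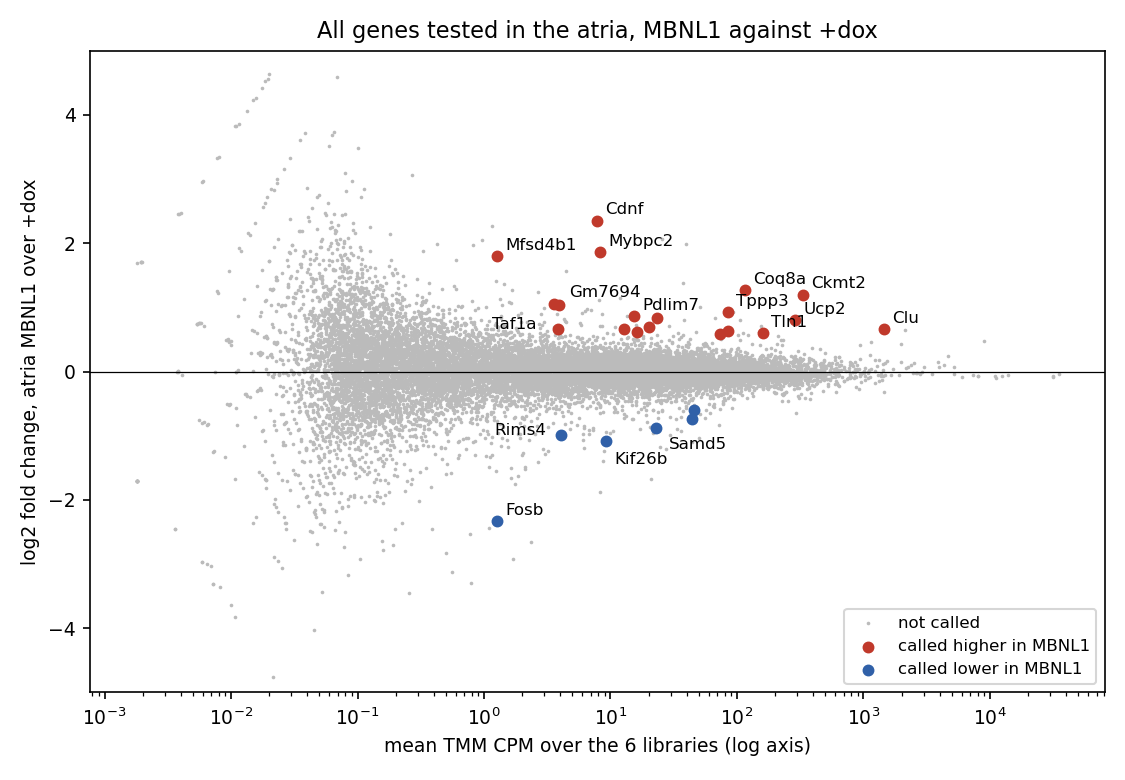
Log2 fold change of atria MBNL1 over +dox (vertical axis) against the mean TMM CPM of the 6 libraries (horizontal log axis) for all genes tested, with the 19 called rises in red and the 6 called falls in blue. Mfsd4b1 and Fosb are the least abundant called genes and Clu is the most abundant, while 19 genes outside ±5 on the vertical axis, none of them called, are not drawn.

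The largest rise was that of Cdnf (ENSMUSG00000039496.8, mm10 chr2:3513030-3526376, plus strand), which encodes a secreted protein of the endoplasmic reticulum related to Manf. Cdnf was at 2.67, 2.65 and 2.38 CPM in the +dox libraries and at 12.8, 10.7 and 15.9 CPM in the MBNL1 libraries, so that the lowest MBNL1 library stood far above the highest +dox one. The fold change was 5.10 (log2 2.35 ± 0.23, adjusted p = 9e-07).

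Mybpc2 (chr7:44501699-44524656, minus strand), the myosin-binding protein C of fast skeletal muscle, was at 4.39, 3.63 and 2.61 CPM in +dox and 11.9, 13.8 and 13.1 CPM in MBNL1. It rose 3.63-fold (log2 1.86 ± 0.38, adjusted p = 0.022), but its call was lost when any 1 of the 6 libraries was left out. Mfsd4b1 (chr10:40001575-40025268, minus strand), a predicted transporter of the major facilitator family, was far less abundant, at 0.57, 0.473 and 0.639 CPM in +dox and 1.62, 1.80 and 2.44 CPM in MBNL1. Its rise was 3.49-fold (log2 1.80 ± 0.22, adjusted p = 7.2e-06).

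Coq8a and Ckmt2, genes of mitochondrial energy metabolism, were the most abundant genes that rose more than 2-fold. Coq8a (chr1:180165238-180199602, minus strand), an atypical kinase needed to make coenzyme Q, was at 73.3, 66.5 and 63.7 CPM in +dox and at 163, 161 and 167 CPM in MBNL1. Its log2 fold change was 1.27 ± 0.18 (adjusted p = 0.00025), with little spread within either cohort. Ckmt2 (chr13:91853387-91876885, minus strand), the mitochondrial creatine kinase of striated muscle, was at 242, 205 and 159 CPM in +dox and at 406, 482 and 503 CPM in MBNL1. Its log2 fold change of 1.20 ± 0.11 had the lowest adjusted p of the comparison (2e-07).

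The other 2 genes that rose more than 2-fold were less abundant. Taf1a, a subunit of the selectivity factor of RNA polymerase I, was at 2.28, 2.23 and 2.46 CPM in +dox and 5.01, 4.08 and 5.39 CPM in MBNL1 (log2 1.05 ± 0.14, adjusted p = 5e-05). Gm7694, a predicted protein-coding gene, was at 2.45, 2.52 and 2.71 CPM in +dox and 4.63, 5.46 and 5.62 CPM in MBNL1 (log2 1.03 ± 0.12, adjusted p = 4.2e-06). Gm7694 (chr1:170298199-170306332, minus strand) lies within Nos1ap on the same strand, so its reads are uncertain where the transcripts share sequence.

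The remaining 12 rises were between 1.50- and 1.90-fold. Clu, which encodes the secreted chaperone clusterin, was the most abundant called gene, at 1040, 1209 and 1108 CPM in +dox and 1641, 1723 and 1941 CPM in MBNL1 (log2 0.66 ± 0.09, adjusted p = 0.00021). Ucp2, a carrier of the inner mitochondrial membrane, was at 213, 240 and 179 CPM in +dox and 321, 403 and 381 CPM in MBNL1 (log2 0.80 ± 0.16, adjusted p = 0.014). Gpt, the alanine aminotransferase, was at 2.88, 2.92 and 3.11 CPM in +dox and 4.71, 5.56 and 3.76 CPM in MBNL1, with its lowest MBNL1 library close to the +dox libraries. Leaving out 1 library ended the call of Gpt in 5 of 6 fits and that of Ucp2 in 4.

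Several called rises were genes of the cytoskeleton or its attachment. Tln1, which encodes the integrin-to-actin linker talin 1, was at 128, 131 and 124 CPM in +dox and 182, 187 and 210 CPM in MBNL1 (log2 0.60 ± 0.10). Myh14, a nonmuscle myosin heavy chain, was at 64.8, 71.8 and 62.7 CPM in +dox and 97.02, 96.8 and 116 CPM in MBNL1 (log2 0.64 ± 0.13). Pdlim7, a PDZ and LIM domain protein of actin filaments and Z-discs, had a log2 fold change of 0.87 ± 0.17, and Tppp3, which binds tubulin, one of 0.92 ± 0.19. With 1 library left out at a time, Tppp3 lost its call in 5 of 6 fits, Pdlim7 in 4, Myh14 in 3 and Tln1 in 2. These 4 genes were grouped after their values were seen, and no list of the cytoskeleton was tested.

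The other rises had varied roles. Lta4h, the leukotriene A4 hydrolase, rose by 0.83 ± 0.10 on the log2 scale (adjusted p = 6e-06), from between 15.9 and 18.3 CPM in +dox to between 26.7 and 33.5 CPM in MBNL1. Kbtbd12, a Kelch and BTB domain protein, rose by 0.70 ± 0.11, and Alkbh3, a demethylase of alkylated nucleic acids, by 0.66 ± 0.11. Vwa7, a von Willebrand factor A domain protein, rose by 0.62 ± 0.13, and Tnip1, an inhibitor of NF-κB signalling, by 0.59 ± 0.10, with its linear fold at 1.50, at the edge of the cutoff. Vwa7 lost its call in 5 of 6 fits that left out 1 library, and Tnip1 in 2.

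**Figure D2:**
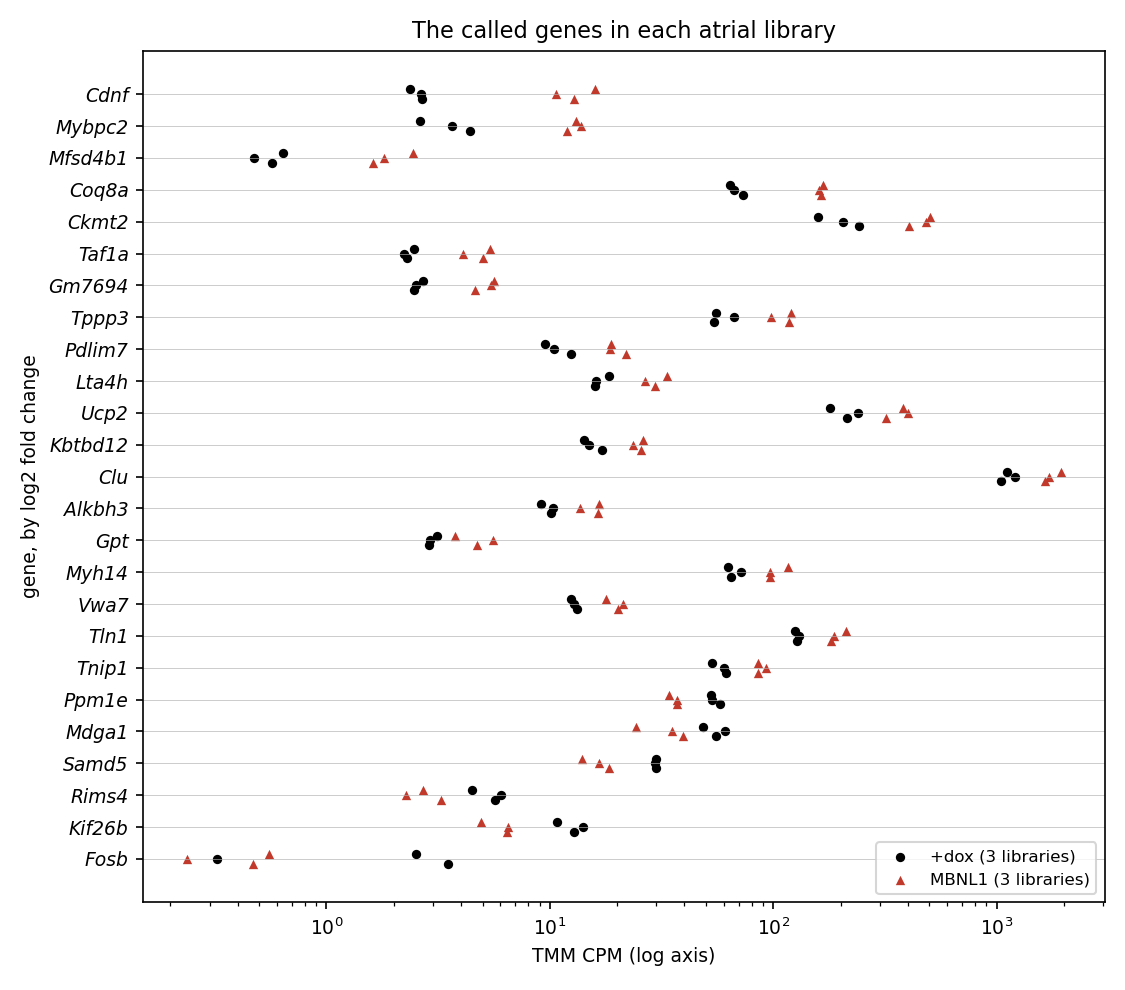
TMM CPM (horizontal log axis) of the 25 called genes in each of the 6 atrial libraries, with genes ordered by log2 fold change, +dox libraries as black circles and MBNL1 libraries as red triangles. The symbols of the cohorts are apart in every gene but Fosb, where 1 +dox library at 0.322 CPM lies among the MBNL1 libraries.

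Of the 6 falls, that of Kif26b, a kinesin family member, was the largest in which the cohorts did not overlap. Kif26b (chr1:178529125-178939200, plus strand) was at 12.8, 14.04 and 10.8 CPM in +dox and 6.41, 6.51 and 4.91 CPM in MBNL1 (log2 -1.08 ± 0.21, adjusted p = 0.014). Rims4 (chr2:163859751-163918683, minus strand), of the family of presynaptic RIM proteins, was at 5.66, 6.07 and 4.50 CPM in +dox and 3.24, 2.28 and 2.697 CPM in MBNL1 (log2 -0.98 ± 0.22, adjusted p = 0.031). Kif26b was 2.11-fold and Rims4 1.98-fold lower with the vector.

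Samd5, a sterile alpha motif domain protein, was at 29.9, 29.6 and 30.002 CPM in +dox and 18.3, 16.5 and 13.9 CPM in MBNL1 (log2 -0.88 ± 0.16, adjusted p = 0.0063). Mdga1, a cell surface protein of the immunoglobulin superfamily, was at 55.4, 60.9 and 48.5 CPM in +dox and 39.2, 35.4 and 24.4 CPM in MBNL1 (log2 -0.74 ± 0.14, adjusted p = 0.0069). Ppm1e, a protein phosphatase that acts on calcium/calmodulin-dependent kinases, was at 58.0, 53.2 and 52.9 CPM in +dox and 37.2, 37.0 and 34.1 CPM in MBNL1 (log2 -0.60 ± 0.12, adjusted p = 0.013). For these 3 genes every MBNL1 library was below every +dox library. Fosb, a transcription factor induced within minutes of a stimulus, was at 3.51, 0.322 and 2.51 CPM in +dox and 0.467, 0.237 and 0.551 CPM in MBNL1. Its log2 fold change of -2.34 ± 0.52 (adjusted p = 0.034) rested on 2 of the 3 +dox libraries. The call of Fosb was lost without either of these 2, and also without any 1 of the MBNL1 libraries. Samd5 kept its call in 5 of 6 fits that left out 1 library, and Ppm1e and Mdga1 in 4. Kif26b kept it in 3, Rims4 in 2 and Fosb in 1. All 6 falls lost their call when MBNL1 replicate 3 was left out.

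To show what the transcripts of these genes hold for MBNL to bind, the 30 bases with the most YGCY motifs (TGCT and its variant TGCC, or with another first base CGCT and then the variant CGCC, on the strand of the transcript and counted also where they overlap) were taken from the 3′ untranslated region of 1 transcript per gene (GENCODE M21, GRCm38). The windows of the 4 largest rises that kept their call under every alternative and of the 2 largest falls without overlap are given 5′ to 3′, with the motifs in capitals.
Cdnf, chr2:3524225-3524254, plus strand: tTGCCtttgcatTGCTatgacaataaTGCT
Mfsd4b1, chr10:40002020-40002049, minus strand: ttgtaagagtcagatgtTGCTataacTGCT
Coq8a, chr1:180166015-180166044, minus strand: TGCCaagtcttggtcttcacagaTGCTGCC
Ckmt2, chr13:91853492-91853521, minus strand: ccctccaagtttatgggtaaactgtcTGCT
Kif26b, chr1:178936625-178936654, plus strand: catcgtccttccTGCCttccTGCCacTGCC
Rims4, chr2:163863553-163863582, minus strand: cctctttTGCCtccttggaagctCGCTGCC

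Such windows were common. A window with at least 3 motifs, as in Cdnf, Coq8a, Kif26b and Rims4, was present in 46.3% of the 3′ untranslated regions of the 14583 tested protein-coding genes that had one of 30 bases or more, though it made up 0.753% of all windows. At least 2 motifs, as in Mfsd4b1, were held by a window in 81.2% of these regions (5.13% of all windows), and at least 1, as in Ckmt2, in 96.0% (28.1% of all windows). Over whole 3′ untranslated regions, the median density was 2.01 motifs per 100 bases in the 18 called rises that had one and 1.29 in the 6 falls, against 1.25 in all genes. The called rises had short regions (median 416 bases, all genes 976) and the falls long ones (median 4256 bases). These are descriptions of sequence. Neither binding nor decay was measured.

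The levels of the called genes were set beside those of the +/-dox and -dox cohorts, in comparisons that share the +dox libraries. At collection both cohorts were off dox as well as without repeat RNA, and these cannot be told apart. Cdnf averaged 2.57 ± 0.165 CPM (SD, n = 3) in +dox, 13.1 ± 2.62 in MBNL1, 25.2 ± 1.49 in +/-dox and 25.7 ± 2.30 in -dox atria. Coq8a averaged 67.8 ± 4.93 CPM in +dox, 164 ± 2.80 in MBNL1, 388 ± 23.2 in +/-dox and 345 ± 29.1 in -dox. Ckmt2 averaged 202 ± 41.7 CPM in +dox, 464 ± 50.9 in MBNL1, 631 ± 45.6 in +/-dox and 695 ± 78.0 in -dox. In these 3 genes the MBNL1 libraries lay between those of the +dox cohort and those of the other 2 cohorts.

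Among the falls, Samd5 averaged 29.8 ± 0.207 CPM in +dox, 16.3 ± 2.24 in MBNL1, 11.9 ± 1.09 in +/-dox and 9.29 ± 1.18 in -dox. Rims4 averaged 5.41 ± 0.813 CPM in +dox, 2.74 ± 0.484 in MBNL1, 0.970 ± 0.0704 in +/-dox and 0.977 ± 0.290 in -dox. In both genes the MBNL1 libraries lay below all +dox libraries and above all libraries of the other 2 cohorts. These 5 genes were picked as examples, and other called genes were placed differently. The log2 fold change of Ppm1e over +dox was -0.60 in MBNL1, -0.34 in +/-dox (adjusted p = 0.057) and -0.34 in -dox (adjusted p = 0.048), the latter 2 under the fold cutoff. That of Kif26b was -1.08 in MBNL1, -0.74 in +/-dox and -1.10 in -dox, that of Fosb -2.34, -1.51 and -1.22, and that of Vwa7 0.62, 0.61 and 0.65. For Clu the log2 fold change over +dox was 0.66 in MBNL1, 0.86 in +/-dox and 0.91 in -dox, and for Ucp2 it was 0.80, 0.88 and 1.08.

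**Figure D3:**
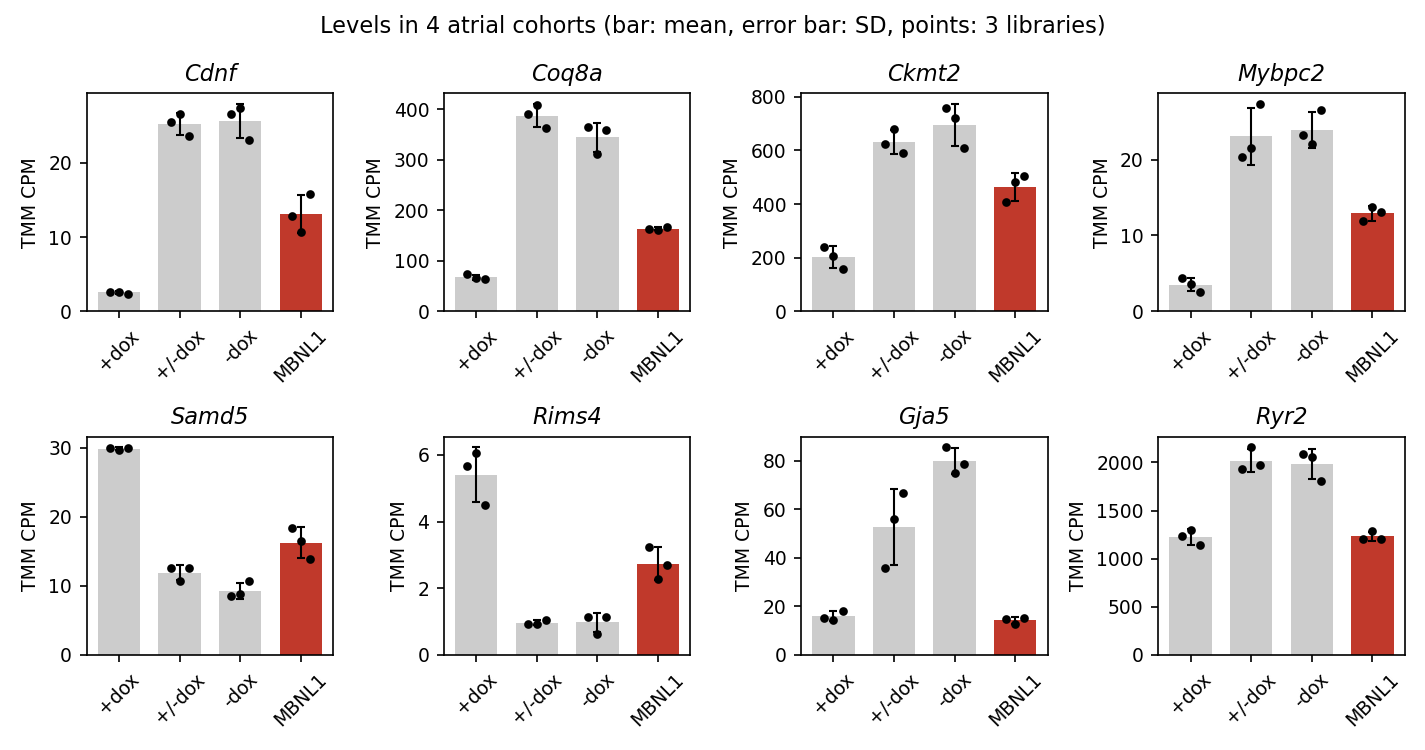
TMM CPM of 8 genes in the +dox, +/-dox, -dox and MBNL1 atria (bars are means, error bars SD, points the 3 libraries). In Cdnf, Coq8a, Ckmt2, Mybpc2, Samd5 and Rims4 the MBNL1 bar (red, the others grey) stands between the +dox bar and the other 2, while in Gja5 and Ryr2 it is level with the +dox bar.

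The question of whether the vector changed genes of conduction and calcium handling was addressed with a short list of such genes. Of Ryr2, Asph, Kcna4, Gja5 and Hcn4, none was called in MBNL1 against +dox atria by edgeR, DESeq2 or limma voom, and the lowest unadjusted p was 0.0504, for Kcna4. Ryr2, the calcium release channel of the sarcoplasmic reticulum, was at 1240, 1299 and 1141 CPM in +dox and 1207, 1289 and 1208 CPM in MBNL1. Its log2 fold change was 0.01 ± 0.07 (adjusted p = 0.996), while it was 0.72 in +/-dox and 0.69 in -dox. Gja5, the connexin of atrial and conducting cells, was at 15.3, 14.5 and 18.3 CPM in +dox and 14.9, 12.7 and 15.2 CPM in MBNL1 (log2 -0.17 ± 0.21, adjusted p = 0.95), beside 1.72 in +/-dox and 2.31 in -dox. The libraries of both cohorts overlapped in both genes.

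Asph, which includes the junctin isoforms of the release complex, had a log2 fold change of -0.10 ± 0.09 (adjusted p = 0.89). Kcna4, a channel of the transient outward current, was at 10.5, 9.09 and 10.5 CPM in +dox and 7.93, 8.68 and 7.18 CPM in MBNL1. The ranges were apart, but the log2 fold change of -0.34 ± 0.17 was not called (adjusted p = 0.63). Hcn4, the pacemaker channel of the sinoatrial node, was at 24.4, 27.2 and 17.1 CPM in +dox and 19.4, 14.8 and 11.2 CPM in MBNL1, with overlap (log2 -0.60 ± 0.52, adjusted p = 0.90).

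Lists of genes for pathways of the heart were chosen with earlier results of these data known, so their share of calls is no test. In 18 such lists, 4 of 376 tested genes were called, each the only one of its list, beside 25 of 19231 over all genes (0.130%). These were Mybpc2 of the fast skeletal muscle genes, Ckmt2 of the creatine, lactate and pyruvate genes, Coq8a of the coenzyme Q genes and Cdnf of the integrated stress response list. By edgeR, 39 of the 376 were at an unadjusted p below 0.05, beside 1521 of all 19231. DESeq2 called 9 of the 376, beside 54 over all genes, and limma voom 6, beside 56 over all genes. Among 13 coenzyme Q genes, those other than Coq8a had log2 fold changes from -0.15 to 0.23, and among 19 creatine, lactate and pyruvate genes the median was -0.09. Ckm, the cytosolic creatine kinase of muscle, was at 0.18 ± 0.10 and Ckb, that of brain and heart, at -0.37 ± 0.12, neither called. No other gene of these 2 lists was called.

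The integrated stress response list had a median log2 fold change of 0.23 over 21 genes, against 0.00 over all genes. In 8 of them every MBNL1 library was above every +dox library (9.24% of all genes), and in 1 below (8.20% of all genes). Trib3, a pseudokinase target of Atf4, was at 2.01, 2.38 and 1.93 CPM in +dox and 4.15, 3.07 and 2.94 CPM in MBNL1 (log2 0.68 ± 0.16, adjusted p = 0.060) and was called by DESeq2 and limma voom, and Aldh18a1, of proline synthesis, had a log2 fold change of 0.47 ± 0.11 (adjusted p = 0.056). Atf4 itself was at 0.05 ± 0.10. With 1 library left out at a time the median of the list lay between 0.01 and 0.30.

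The natriuretic peptide and hypertrophy list had the highest median, 0.35 over 14 genes, none of which was called by edgeR, with 3 at an unadjusted p below 0.05 and 1 (Ankrd1) called by DESeq2. Nppa, the atrial natriuretic peptide, was at 8188, 7015 and 7250 CPM in +dox and 9876, 11541 and 9945 CPM in MBNL1 (log2 0.48 ± 0.50, adjusted p = 0.93). Its ranges did not overlap, and the SE is not the spread of these 6 libraries alone. It comes from the fit of all 36 libraries, ventricles included, and Nppa was at 301, 169 and 93.4 TPM in the +dox ventricles. Ankrd1, a stretch-responsive protein of the sarcomere, was at 1951, 1669 and 1319 CPM in +dox and 2449, 2798 and 2506 CPM in MBNL1 (log2 0.65 ± 0.20, adjusted p = 0.23). In 7 of the 14 genes every MBNL1 library was above every +dox library, as in 9.24% of all genes.

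Of 25 genes of the cardiac sarcomere none was called by any of the 3 tools, with 5 at an unadjusted p below 0.05 and a median of 0.07. Myh6, the main myosin heavy chain of the atria and the source of the α-MHC promoter, had a log2 fold change of -0.03 ± 0.09, and Tnnt2, whose human promoter drives the vector, one of 0.00 ± 0.09. Myl2 and Myl3 were at 1.99 ± 0.83 and 2.06 ± 0.86, not called, with the per-library levels of Myl2 as given above.

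Of 27 genes of calcium release and uptake none was called by any of the 3 tools, with 3 at an unadjusted p below 0.05. Camk2a, a subunit of the calcium/calmodulin kinase, was at 52.5, 54.4 and 53.3 CPM in +dox and 73.7, 76.2 and 67.4 CPM in MBNL1, a log2 fold change of 0.44 ± 0.09 that passed the adjusted p (0.019) but not the fold cutoff. Of 25 potassium channel genes none was called by edgeR, with 3 at an unadjusted p below 0.05. Kcna1 was at 6.94, 8.02 and 10.7 CPM in +dox and 4.06, 4.18 and 2.99 CPM in MBNL1 (log2 -1.19 ± 0.35, adjusted p = 0.17), and was called by both DESeq2 and limma voom. Clcn1, the chloride channel of skeletal muscle whose loss gives myotonia, was at 3.10, 2.52 and 2.36 CPM in +dox and 4.42, 4.16 and 6.26 CPM in MBNL1, without overlap. Its log2 fold change of 0.89 ± 0.22 (adjusted p = 0.060) was likewise called by those 2 tools but not by edgeR, beside 2.45 in +/-dox and 2.55 in -dox.

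The lists with the lowest medians were antigen presentation (-0.39 over 21 genes), connexins and pacemaker genes (-0.17 over 11 genes) and interferon-induced genes (-0.16 over 34 genes). None of their genes was called by any of the 3 tools, and 1, in the connexin and pacemaker list, had an unadjusted p below 0.05. In the antigen presentation list the libraries of replicate 3 stood apart in both cohorts: Cd74, the invariant chain, was at 255, 191 and 435 CPM in +dox and 158, 88.0 and 392.4 CPM in MBNL1. With 1 library left out at a time the median of the antigen presentation list lay between -1.08 and 0.12, and that of the interferon list between -0.55 and 0.19, so neither kept its sign.

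**Figure D4:**
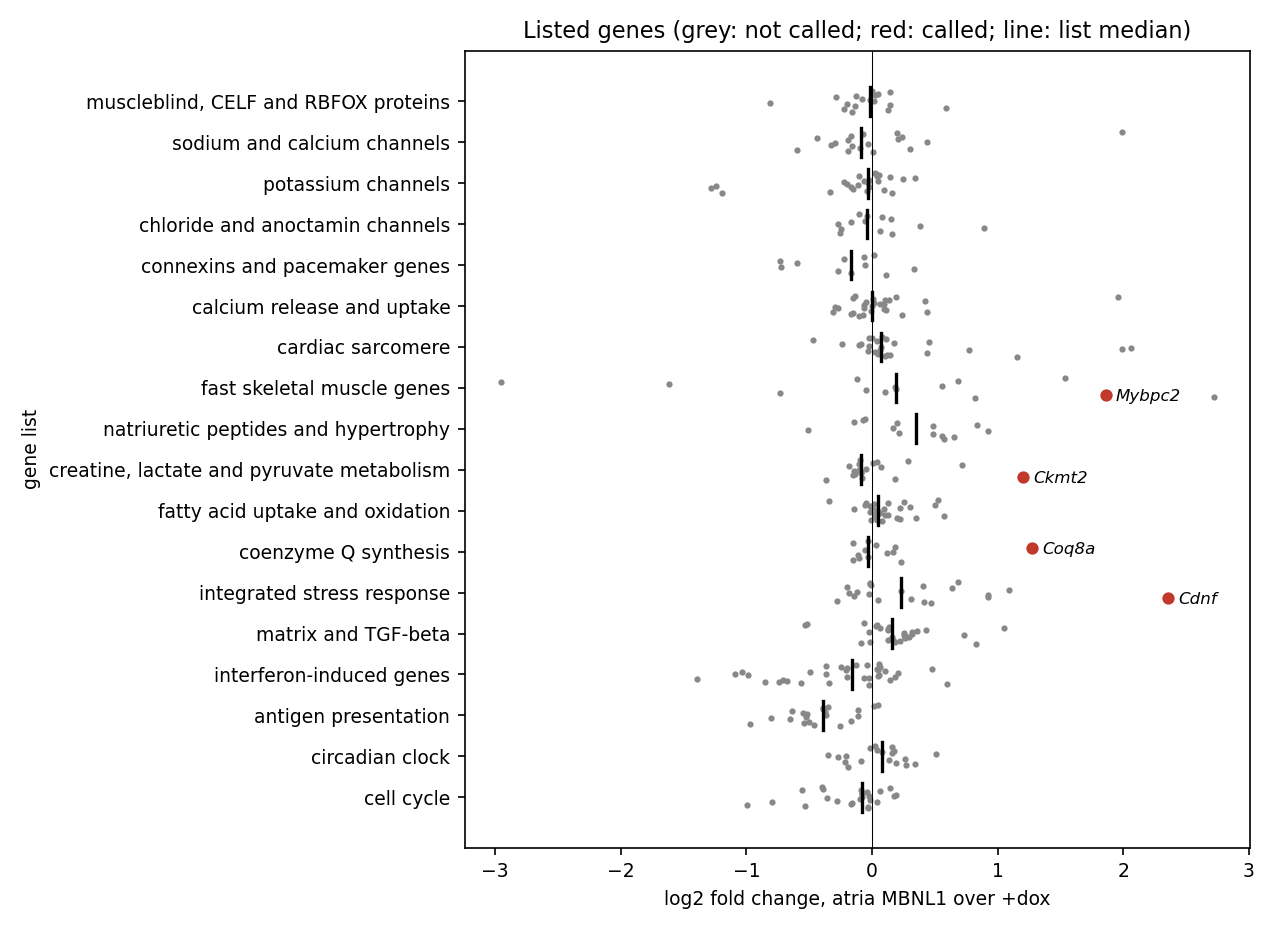
Log2 fold change of atria MBNL1 over +dox (horizontal axis) for the tested genes of 18 pathway lists, with called genes in red, the others in grey and the median of each list as a black line. Cdnf, Coq8a, Ckmt2 and Mybpc2 stand to the right of the list medians, which lie between -0.39 and 0.35. Genes that were not called spread as widely, from -2.96 to 2.72 among the fast skeletal muscle genes.

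Markers of the cell types that a piece of atrium can hold were counted beside these results. Of 146 marker genes tested none was called by edgeR or DESeq2, and 1, Vsnl1 of the sinoatrial node list, by limma voom. Over all genes these tools called 25, 54 and 56. At an unadjusted p below 0.05 by edgeR were 10 of the 146, beside 1521 of all 19231. With so few calls over all genes, their absence among 146 says little about these cell types. The summed level of 10 smooth muscle and pericyte markers was 223 to 276 TPM in +dox and 326 to 423 TPM in MBNL1, and that of 9 sinoatrial node markers 93.8 to 111 TPM and 73.9 to 93.2 TPM. The 13 ventricular markers summed to 401 to 487 TPM in +dox and 484 to 972 TPM in MBNL1. Of the 10 lung markers, 9 were under 1 TPM in all 6 libraries, Hopx being the exception. The part of other cells in the called genes was not tested. Of the 19 called rises, 12 had a higher mean in the ventricle than in the atria of +dox mice, and of the 6 falls 1. The margin was small for some, as for Myh14 (69.4 against 66.5 CPM), and large for others, as for Gpt (20.3 against 2.97 CPM). Such a share was not counted over all genes, so these counts have no baseline. Without MBNL1 replicate 1, the library with the highest ventricular markers, 21 genes were called, 19 of them among the 25. Mybpc2, Tppp3, Pdlim7, Gpt, Vwa7 and Fosb lost their call in that fit. No called gene's log2 fold change moved by more than 0.144, though MBNL1 replicate 2, with 1.12% of the ventricular Myl2 level, was still in it.

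The ventricles of the same cohorts gave a further look at the called genes, in libraries other than the 6, though from the same animals. In the ventricle 511 of 19231 genes were called between MBNL1 and +dox (2.66%), 220 higher (1.14%) and 291 lower (1.51%). Of the 25 atrial genes, 16 were also called in the ventricle, 14 higher and 2 lower in both tissues. They made up 64.0% of the atrial and 3.13% of the ventricular calls. All 19 atrial rises had a ventricular log2 fold change above 0, and all 6 falls one below 0.

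For Cdnf the ventricular log2 fold change was 3.34 ± 0.24, beside the atrial 2.35, and for Coq8a it was 1.88 ± 0.18, beside 1.27. Ckmt2 had a ventricular value of 1.19 ± 0.11 and an atrial one of 1.20. The 9 atrial calls not called in the ventricle included Tppp3, Ucp2, Gpt and Vwa7, with ventricular values of 0.26, 0.34, 0.06 and 0.31. The difference between the tissues was itself tested as an interaction, and for none of the 25 genes did it pass (lowest adjusted p = 0.41). The fit held no term for the animal, since the labels do not tie the libraries of the tissues to animals. At an unadjusted p below 0.05 it was 7 of the 25, and DESeq2 and limma voom also called none.

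**Figure D5:**
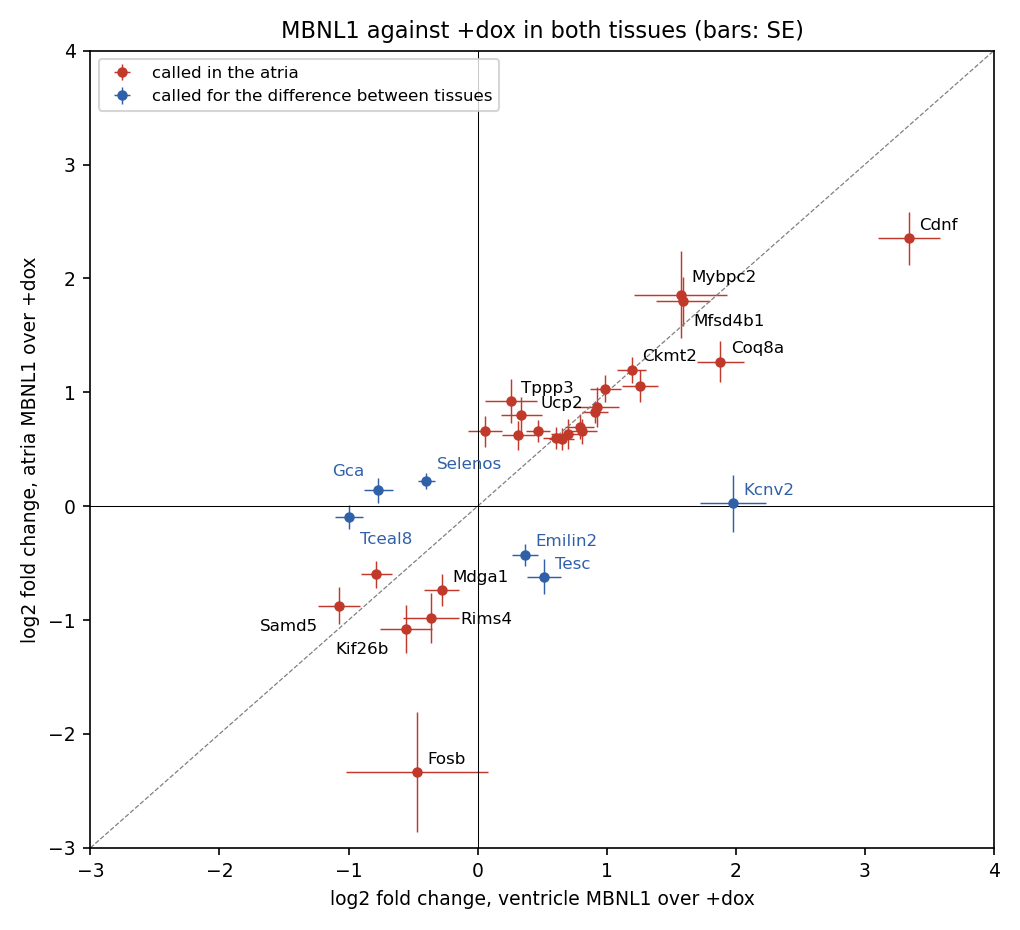
Log2 fold change of MBNL1 over +dox in the atria (vertical axis) against that in the ventricle (horizontal axis), with SE bars, for the 25 genes called in the atria (red) and the 6 genes called for the difference between tissues (blue); the dashed line marks equal change. All red points lie in the quadrants of equal sign, and the blue points near or across the axes.

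Over all genes, the change with the vector differed between atria and ventricle in 6 (0.0312%), with 1568 at an unadjusted p below 0.05. None of the 6 was among the 25. Kcnv2, a modifier subunit of potassium channels, was at 6.01, 8.29 and 6.39 CPM in +dox and 5.10, 7.80 and 8.15 CPM in MBNL1 atria, with overlap, and at 3.24, 4.41 and 7.23 CPM in +dox and 20.9, 19.9 and 17.7 CPM in MBNL1 ventricles. The difference of the log2 fold changes, atria minus ventricle, was -1.96 (adjusted p = 0.026). For Kcna4 this difference was 1.20 and just missed the threshold (adjusted p = 0.050), from an atrial -0.34 and a ventricular -1.54.

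Emilin2, a glycoprotein of the elastic matrix, was at 105, 123 and 100.3 CPM in +dox and 88.7, 78.8 and 77.1 CPM in MBNL1 atria. In the ventricle its log2 fold change was 0.37, giving a difference of -0.79 (adjusted p = 0.012). Tesc, the calcium-binding protein tescalcin, had an atrial value of -0.62 and a ventricular one of 0.52 (difference -1.14, adjusted p = 0.016). Both genes were lower with the vector in all 3 atrial libraries and had a higher mean with it in the ventricle.

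Gca, the calcium-binding protein grancalcin, had an atrial log2 fold change of 0.14 and a ventricular one of -0.77 (difference 0.91, adjusted p = 0.012). Tceal8, a transcription elongation factor-like protein, had -0.10 and -0.99 (difference 0.90, adjusted p = 0.012), and Selenos, a selenoprotein of the endoplasmic reticulum, 0.22 and -0.40 (difference 0.62, adjusted p = 0.0083). All 3 had an adjusted p below 0.05 for a lower ventricular level, with Selenos under the fold cutoff, and none was called in the atria. Ventricular MBNL1 replicate 1 was a library with few detected genes, 16885 against 22581 and 22979 in the other 2, and without it 3 genes were called for the difference. Left-out libraries took the count to between 0, without atrial +dox replicate 2, and 12, without ventricular MBNL1 replicate 3.

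The genes that differed between -dox and +dox ventricles were also looked up in the atrial comparison. These cohorts differ in dox feeding as well as in repeat RNA, so the drug and the repeat cannot be told apart. Between -dox and +dox ventricles 1461 of 19231 genes were called (7.60%). The 667 genes higher in -dox had a median log2 fold change of 0.19 in MBNL1 against +dox atria. Of them 79.9% were above 0 and 14 were called (2.1%), all higher. The 794 genes lower in -dox had a median of -0.17, with 77.1% below 0 and 4 called (0.504%), all lower. Over all genes tested 50.5% were above 0 and 49.4% below 0, with 0.0988% called higher and 0.0312% called lower. These lists share no library with the atrial comparison, but the +dox ventricles came from the same animals as the +dox atria. The 2-fold lists of 249 and 435 genes gave medians of 0.26 and -0.24.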

How the data were processed

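Poly(A)-selected RNA (250 ng) was sequenced with a stranded TruSeq kit in paired 150-cycle reads, aligned by the authors with STAR 2.7.10b to mm10 with GENCODE M25 and quantified with RSEM 1.3.1. The strand setting of the quantification was not given in the sources used here. The authors deposited expected counts and TPM values per gene and library (55291 genes). TPM values, normalised for gene length and depth by the authors, were used for marker sums, for Mbnl1 and for the agreement of replicates. Human MBNL1 cDNA reads and human DMPK transgene reads were not counted separately.

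The expected counts were rounded to whole numbers and fitted with edgeR 4.0.16 (R 4.3.3) for all 36 libraries, with 1 mean for each of 12 tissue and cohort groups, default expression filter, TMM factors and robust quasi-likelihood. P-values were two-sided and adjusted over all genes tested (Benjamini-Hochberg), and a call needed an adjusted p below 0.05 and a 1.5-fold change, the thresholds of the study. The SE of a log2 fold change comes from this fit. DESeq2 1.42.0, limma 3.58.1 (voom), other sets of libraries, no filter, other size factors, blocks for the replicate number and the library name series, and leaving out each library were tried, and the fit was tested on simulated data. Named were all called genes (the rule for up to 60 calls), Mbnl1, Mbnl2, Mbnl3, Dmpk and the genes the study names for expression, the called and 1 to 4 other members of a list, and the genes called for the difference between tissues. A result that this rule would name is not reported here. The comparison, its genes and its lists were chosen with earlier results of these data known. The 3 libraries of a cohort came from 3 animals.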

Additional observations from a re-analysis of the deposited data

Results flagged for a closer look

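The change with the MBNL1 vector differed between atria and ventricle by an interaction test (edgeR quasi-likelihood, Benjamini-Hochberg adjusted) in 6 genes, given as the atrial minus the ventricular log2 fold change. It was lower in the atria for Kcnv2 (-1.96, higher with the vector in 3 of 3 ventricular libraries), Tesc (-1.14) and Emilin2 (-0.79). It was higher in the atria for Selenos (0.62), Tceal8 (0.90) and Gca (0.91). Tesc, Emilin2, Selenos and Gca had opposite signs in the tissues. Gca kept its call in 18 of 19 alternatives and Kcnv2 in 9. Groups of 3 libraries were not tested for single outlying libraries.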

How the results depend on the processing

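Of the 25 called genes, 10 (Cdnf, Mfsd4b1, Coq8a, Ckmt2, Taf1a, Gm7694, Lta4h, Kbtbd12, Clu and Alkbh3) kept their call in all 15 alternatives and 18 in the 9 that left out no library. The count of 25 was 67 by adjusted p alone, 54 with DESeq2, 56 with limma voom, 43 in a fit of the 18 atrial libraries and 41 in a fit of the 6 libraries, and DESeq2 called all 25 of them and voom 22. Voom gave 26 rises and 30 falls, in place of 19 and 6. With 1 library left out the count lay between 13 and 21. The 13, without MBNL1 replicate 3, were all rises, with 560 genes lower at an unadjusted p below 0.05. The count for the difference between tissues was 18 with DESeq2 and lay between 0 and 12 with 1 library left out. It was 0 without atrial +dox replicate 2 (lowest adjusted p = 0.058, 1203 genes at an unadjusted p below 0.05), 3 without ventricular +dox replicate 1, 2 without replicate 2, 3 without ventricular MBNL1 replicate 1 and 12 without replicate 3. The medians of the ventricular lists were 0.26 and -0.24 with a 2-fold cutoff and lay between 0.14 and 0.20 and between -0.19 and -0.15 with 1 library left out. With 1 library left out, log2 fold changes near 0 changed sign, none called, for Dmpk (-0.086 to 0.020) and Ryr2 (-0.043 to 0.051). The cause of these moves was not tested. With the replicate number as a block, 29 genes were called (21 higher, 8 lower), 24 of them among the 25. With the library name series as a block, 34 genes were called, and all 25 were among them. Same-numbered libraries of the cohorts deviated together with r = 0.085, 0.147 and 0.290 across 19231 genes. These values were not above 0.1 in every pair, so the numbers were not taken to pair animals. Each MBNL1 library correlated best with its own number, but replicate 2 hardly so (0.147 against 0.146 with +dox replicate 1). Replicate 3 shared its sex and name series between the cohorts.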

Other observations

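After the fall of Fosb was seen, other genes that respond within minutes to a stimulus were looked up, and none of Fos, Egr1, Nr4a1, Ier2 and Junb was called by edgeR, with the lowest unadjusted p at 0.0587 (Nr4a1). Fos, which pairs with Jun proteins, was at 13.0, 1.73 and 24.3 CPM in +dox and 4.50, 1.33 and 4.84 CPM in MBNL1 atria (log2 -1.87, edgeR adjusted p = 0.68). Egr1, a zinc finger transcription factor, was at 38.4, 12.2 and 64.0 CPM in +dox and 23.5, 14.7 and 11.6 CPM in MBNL1, and Nr4a1, an orphan nuclear receptor, at 27.0, 12.1 and 47.2 CPM and 16.5, 12.8 and 15.1 CPM. In all 3 genes, as in Fosb, +dox replicate 2 was the lowest +dox library and lay within or near the MBNL1 range. Ier2 and Junb differed less, with log2 fold changes of -0.45 and -0.06. Junb was at 13.1, 11.4 and 22.9 CPM in +dox and 18.6, 12.3 and 14.6 CPM in MBNL1.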
